A study of Homo sapiens with 6 samples.

Results

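The 9 human genes WDR25, MAD1L1, PACSIN2, URB1, MCF2L, DEAF1, SSBP3, GPSM1 and SH3BP5 hosted the largest stretches of chromatin carrying acetylated lysine 27 of histone H3 (H3K27ac) in the clear cell sarcoma (CCS) cell line SU-CCS-1. They were chosen by peak width, either because a stitched region over the gene had one of the largest summed peak widths or because the gene held one of the widest single peaks. They are 9 of 20015 protein-coding genes, and their bodies with 50 kb on either side held 273 of the 30784 peaks in the list. Because widths chose these genes, the widths, summed widths and coverage below are descriptions and were not tested. Gap lengths and the shares of start sites in peaks are tied to the same choice and are descriptions too.

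The series holds 3 H3K27ac ChIP samples and 3 input samples of SU-CCS-1, all with the EWSR1::ATF1 (EA1) genotype and no treatment named. SU-CCS-1 is a single established line, so its chromatin stands for 1 tumor, and input is sonicated chromatin without immunoprecipitation. A single merged list of peaks was deposited, with a start and an end for each peak and no score, read count or value per sample. No replicate spread could be computed, the read depth behind each peak is unknown from the list, and a stretch without a peak was below the calling threshold or was filtered after calling. SOX10 is a transcription factor of the neural crest and melanocyte lineages that is characteristic of CCS. The stitched region over SOX10, which also lies over a neighbouring gene, ranked 6 by summed peak width, with 59.94 kb. SOX10 was named after its values were seen, so it is an example and not an independent check of the label.

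H3K27ac is placed by acetyltransferases such as EP300 and CREBBP and marks active promoters and enhancers. At most active genes the mark forms a short block around the transcription start site, whereas at lineage genes and at clusters of enhancers it can run for many kilobases, often through introns. EA1 joins the activating part of EWSR1 to the DNA-binding domain of ATF1, a factor of the CREB family that recognizes TGACGTCA. Factor-bound sites within acetylated domains are often short dips between acetylated stretches, since nucleosomes are displaced there. A gap here is only a break between called peaks, and neither displacement of nucleosomes nor binding was measured in it. The sequences of some gaps are shown first, followed by motif matches and promoters.

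The gaps below, read from the hg38 sequence, are examples where 2 peaks of a gene came closest to each other or a motif match was found. Other short gaps, among them a gap of 140 bases in MCF2L, are not shown. The URB1 gap of 240 bases parted peaks of 24.13 and 18.57 kb and included 102 bases of exon 17, and the DEAF1 gap of 190 bases in intron 1 parted the peak over the start site from a 14.16 kb peak. The PACSIN2 gap of 270 bases in intron 1 held TGAGTCA, the AP1 motif, in capitals, 1 of 12 such matches in gaps of 50 to 1000 bases. The SH3BP5 gap of 40 bases in intron 2 was the shortest gap in any of the 9 windows.
URB1 gap (chr21:32354721-32354960, + strand): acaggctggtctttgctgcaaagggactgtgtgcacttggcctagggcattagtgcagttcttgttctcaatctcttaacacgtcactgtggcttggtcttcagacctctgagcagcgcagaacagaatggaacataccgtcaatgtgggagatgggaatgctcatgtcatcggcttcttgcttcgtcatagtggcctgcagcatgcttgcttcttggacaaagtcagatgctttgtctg
DEAF1 gap (chr11:693191-693380, + strand): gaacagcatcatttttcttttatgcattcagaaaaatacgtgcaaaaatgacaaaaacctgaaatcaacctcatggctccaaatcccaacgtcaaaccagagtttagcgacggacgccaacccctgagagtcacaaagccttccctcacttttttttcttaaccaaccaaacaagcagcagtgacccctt
PACSIN2 gap (chr22:42922091-42922360, + strand): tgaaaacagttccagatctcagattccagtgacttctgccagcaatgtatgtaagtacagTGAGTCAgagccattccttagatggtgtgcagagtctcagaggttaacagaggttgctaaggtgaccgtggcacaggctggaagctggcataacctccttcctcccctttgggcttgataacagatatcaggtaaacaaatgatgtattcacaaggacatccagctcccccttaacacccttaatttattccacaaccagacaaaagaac
SH3BP5 gap (chr3:15326841-15326880, + strand): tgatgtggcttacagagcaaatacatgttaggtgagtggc

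The motif TGACGTCA, which reads the same on both strands, occurred 5 times in the 273 peaks. The 4 matches downstream of the canonical start sites are shown with 26 bases on either side and the motif in capitals, because TGACGTCA is the canonical site of the fusion's DNA-binding domain. The WDR25 and DEAF1 matches shown lay in the main stitched regions of those genes, and the MAD1L1 match lay outside its main region, in one that ranked 643. A match is a description of sequence and does not show binding.
WDR25 site (chr14:100423544-100423603, + strand): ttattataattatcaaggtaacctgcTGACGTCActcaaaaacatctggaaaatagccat
MAD1L1 site (chr7:1939983-1940042, + strand): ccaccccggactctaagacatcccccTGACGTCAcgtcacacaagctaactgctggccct
DEAF1 site within the 14.16 kb peak, nearer the 3′ end of the gene (chr11:689838-689897, + strand): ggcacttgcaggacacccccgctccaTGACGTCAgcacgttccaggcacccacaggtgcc
DEAF1 site within the 14.16 kb peak, nearer the canonical start (chr11:693048-693107, + strand): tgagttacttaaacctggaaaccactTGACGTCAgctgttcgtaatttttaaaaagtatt

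The promoters below are the 250 bases before the canonical start site, in the direction of the gene, from RefSeq with build GRCh38.p14. All 9 genes matched an entry, and the promoters of 5 overlapped no annotated exon. Of these, 3 are printed as examples of promoters that lay wholly inside a peak while the widest peak of the gene lay elsewhere, with CG dinucleotides in capitals.
PACSIN2 promoter (chr22:43015150-43015399, - strand): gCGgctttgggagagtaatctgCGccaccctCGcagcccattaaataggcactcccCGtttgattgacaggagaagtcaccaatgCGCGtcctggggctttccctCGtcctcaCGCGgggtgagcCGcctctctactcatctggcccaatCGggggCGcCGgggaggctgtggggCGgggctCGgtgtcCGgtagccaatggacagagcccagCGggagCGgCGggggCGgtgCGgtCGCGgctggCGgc
MCF2L promoter (chr13:112968964-112969213, + strand): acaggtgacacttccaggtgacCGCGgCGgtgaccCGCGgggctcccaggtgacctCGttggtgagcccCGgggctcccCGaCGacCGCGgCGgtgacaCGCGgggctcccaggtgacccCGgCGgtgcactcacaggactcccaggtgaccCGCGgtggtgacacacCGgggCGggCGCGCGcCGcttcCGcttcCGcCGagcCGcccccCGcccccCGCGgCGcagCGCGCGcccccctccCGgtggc
SH3BP5 promoter (chr3:15332587-15332836, - strand): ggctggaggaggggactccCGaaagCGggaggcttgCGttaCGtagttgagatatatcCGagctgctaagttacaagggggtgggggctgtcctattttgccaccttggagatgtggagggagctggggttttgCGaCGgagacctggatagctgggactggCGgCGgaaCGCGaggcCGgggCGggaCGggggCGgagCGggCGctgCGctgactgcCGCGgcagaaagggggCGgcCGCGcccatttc

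The 9 windows held 695.52 kb of peaks, which was 1.58% of the peak bases of the list from 0.887% of its peaks. The typical peak was not wide. Median width was 1010 bases (quartiles 640 and 2680) in the windows against 1060 bases (quartiles 620 and 1760) in the whole list, so the difference lay in the upper tail. Peaks wider than 5 kb made up 37 of 273 (13.6%) in the windows and 2.10% of all peaks, and they held 54.9% of the peak bases in the windows against 11.2% in the whole list. Of the 98 peaks wider than 10 kb in the list, 13 lay in these windows. Within the windows, 83.9% of peak bases lay inside the 9 genes themselves rather than in the flanks.

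Ranked by summed width, the regions made by stitching nearby peaks, at the distance the study used, placed WDR25 at rank 1 (95.58 kb in peaks), MAD1L1 at rank 2 (86.8 kb), PACSIN2 at rank 3 (82.75 kb), URB1 at rank 4 (63.89 kb) and MCF2L at rank 5 (61.45 kb) of 17049 regions. DEAF1 stood at rank 7 (58.01 kb) and SSBP3 at rank 10 (51.22 kb), just inside that limit, with the next region at 50.19 kb. SH3BP5 and GPSM1 ranked 14 (43.81 kb) and 30 (35.04 kb), and were included for single peaks of 19.12 and 28.35 kb. These were the 8th and the 2nd widest of the list, where rank 10 measured 18.52 kb and rank 11 measured 18.04 kb. WDR25 and URB1 were in by both measures. The shortest gap in the 9 windows that stitching did not join measured 12.58 kb. The study ranked its stitched regions by reads normalized to input, which the peak list does not hold. The ranks here are by summed width and are not those of the study.

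**Figure D1:**
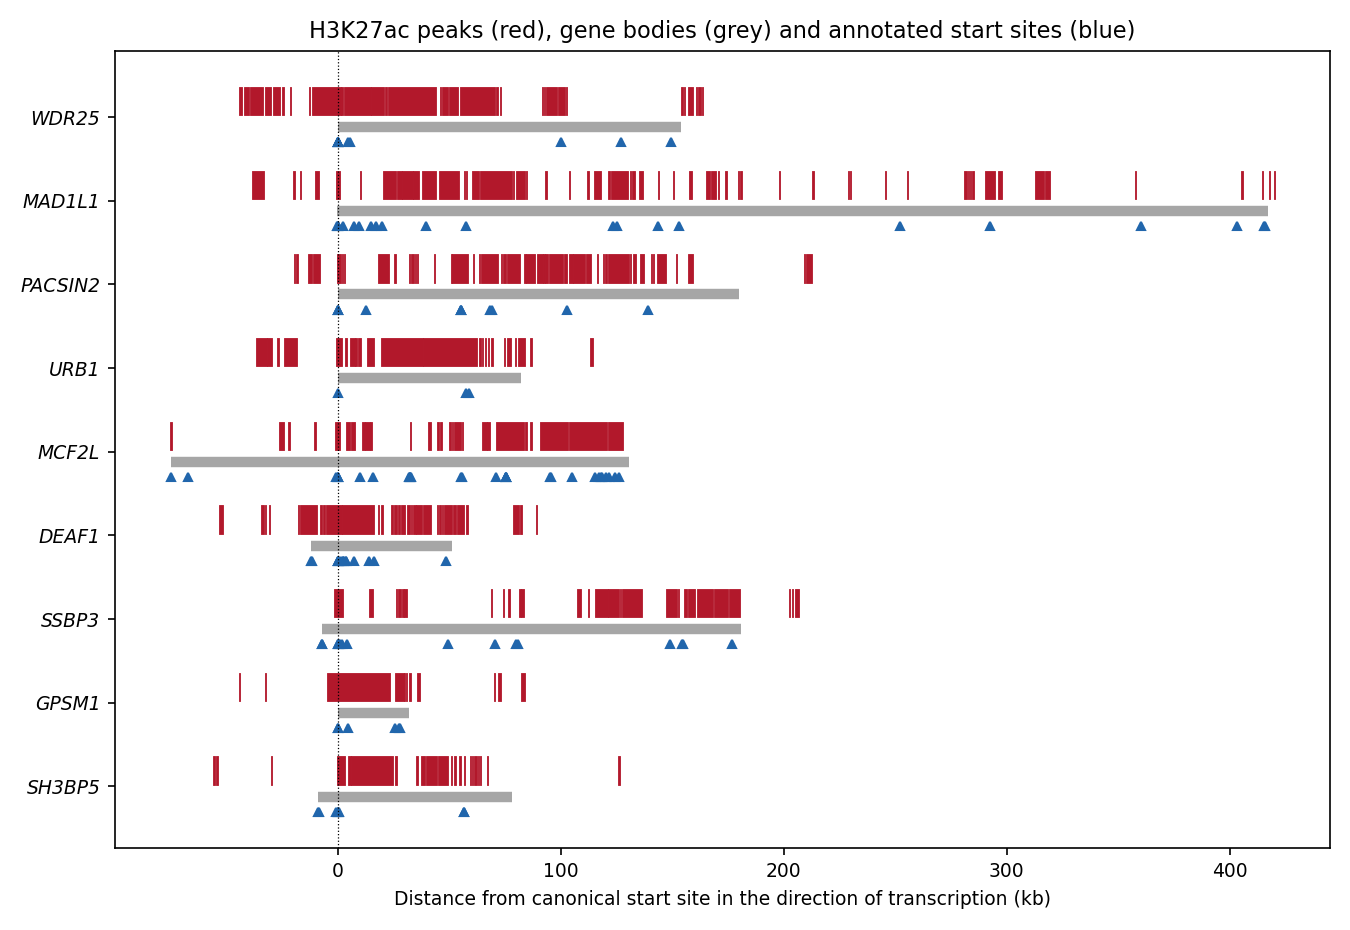
H3K27ac peaks (red bars), gene bodies (grey bars) and annotated start sites (blue triangles) of the 9 genes, against distance in kb from the canonical start site in the direction of transcription; gaps shorter than about 1 kb are too short to be resolved at this scale. Peaks ran from the start site into the gene in GPSM1, DEAF1 and WDR25, whereas in MCF2L and SSBP3 the densest peaks lay near the 3′ end.

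Coverage of the gene body by peaks had a median of 49.4% over the 9 genes, against 1.45% over all protein-coding genes and 1.26% over the 9514 genes of 30 kb or longer. GPSM1 had 88.3% of its body in peaks, DEAF1 74.2% and URB1 73.8%, and these were ranks 3, 4 and 6 among the genes of 30 kb or longer. SH3BP5 (50.3%), WDR25 (49.4%) and PACSIN2 (47.2%) formed a middle group. MCF2L (36.6%) and SSBP3 (34.0%) were lower. MAD1L1, with the longest body (417.5 kb), was lowest at 24.96%, just below the 99th percentile of genes of 30 kb or longer (26.5%), while its 104.193 kb of peak bases in the gene body ranked 3 among all protein-coding genes.

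**Figure D2:**
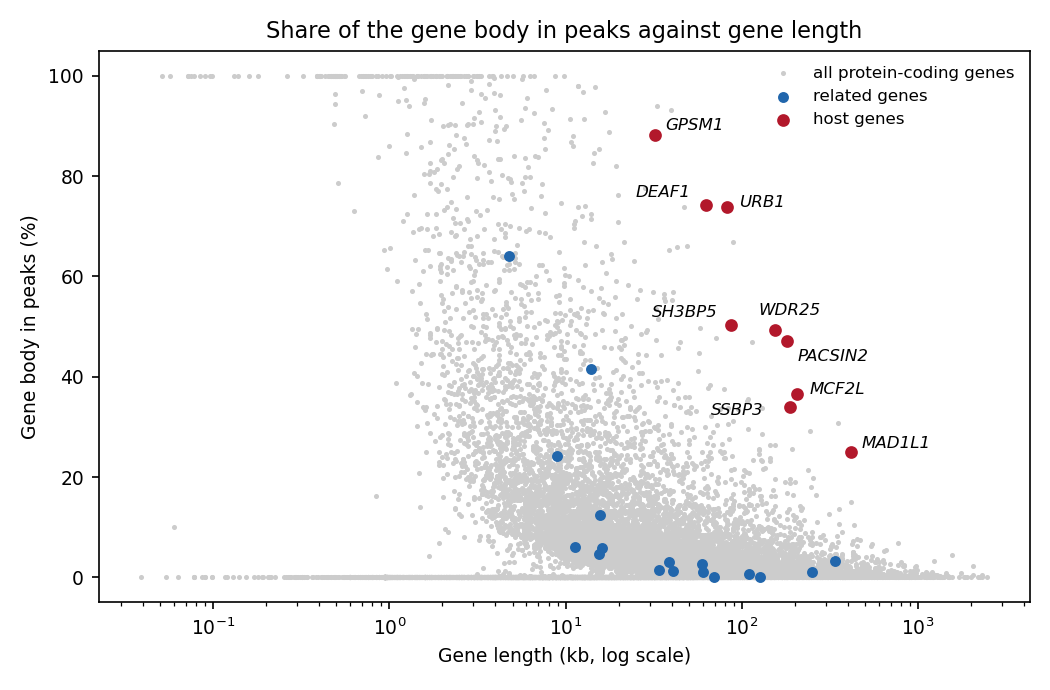
Percent of the gene body in H3K27ac peaks (y axis) against gene length in kb (x axis, log scale) for all protein-coding genes (grey), 17 related genes (blue) and the 9 host genes (red). The host genes lie along the upper edge of the cloud for genes longer than 30 kb, from GPSM1 at 88.3% to MAD1L1 at 24.96%.

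DEAF1 (chr11:644233-707118, - strand, 62.89 kb) is a transcription factor with a SAND domain. Positions here and below are in kb from the canonical start site, negative upstream. The canonical start lay in a 7.22 kb peak that ran from -5.378 to 1.841 kb. After the 190-base gap the widest peak, 14.16 kb, ran on to 16.191 kb over exons 2 to 8. A further 7.62 kb peak from -17.068 to -9.449 kb covered the outermost start sites of DEAF1. Of its 31 peaks in the window 3 were wider than 5 kb, and 20 separate peaks touched the body, where the longest stretch without a peak was 3.53 kb. Exons touched by a peak numbered 10 of 12, and intron 10 held the most peak bases, 14.299 of 20.484 kb.

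SSBP3 (chr1:54225432-54413479, - strand, 188.0 kb) is a single-stranded DNA-binding protein that works with LDB1 in transcription complexes. The start site lay in a 3.97 kb peak from -1.816 to 2.153 kb. The domain lay at the other end of the gene. Its main stitched region ran from 107.094 to 180.303 kb and held 13 peaks, of which the widest measured 9.14 kb and lay in intron 5. Intron 4, 120.333 kb long, had 17.0% of its bases in peaks, whereas intron 14 had 94.7%. No peak of SSBP3 was wider than 10 kb and 5 were wider than 5 kb, and exons 10 to 14 shared a single 7.47 kb peak. The longest stretch of the body without a peak, 37.78 kb, lay in intron 4.

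URB1 (chr21:32311018-32393012, - strand, 82.0 kb) is a nucleolar protein of large ribosomal subunit assembly. A 2.70 kb peak from -0.828 to 1.871 kb held the start site, and small peaks followed it. The widest pair of neighbouring peaks among the 9 genes came next. The 18.57 kb peak covered exons 8 to 16 and part of exon 17 between 19.482 and 38.051 kb, and the 24.13 kb peak, rank 4 of the list, covered exons 18 to 30 between 38.292 and 62.421 kb. The gap of 240 bases printed above parted them, and the middle stretch of the gene was 99.1% covered. Peaks touched 33 of the 39 exons. The 24.13 kb peak also held both alternative start sites of URB1, at 57.382 and 58.678 kb.

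MAD1L1 (chr7:1815793-2233243, - strand, 417.5 kb) is a spindle assembly checkpoint protein that recruits MAD2L1 to kinetochores. Its window held the most peaks, 56, and the largest summed width, 114.67 kb. The peak at the start site was narrow at 1.80 kb, from -0.975 to 0.824 kb. The domain sat in intron 10, where 54.312 of 63.973 kb (84.9%) was in peaks, and this intron held 52.6% of all intronic peak bases of the gene. The widest peak, 14.41 kb, ran from 63.775 to 78.184 kb in that intron, with the nearest annotated start site 6215 bases away. Only 4 of 19 exons touched a peak. Between the main stitched region and the 3′ end, peaks stood alone or in small clusters, of which the largest held 6 peaks and 9.48 kb. A stretch of 47.21 kb in intron 18 had none.

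PACSIN2 (chr22:42835412-43015149, - strand, 179.7 kb) is an F-BAR protein that bends membranes in endocytosis and at caveolae. The peak at the start site measured 1.80 kb, from -0.551 to 1.248 kb. PACSIN2 differed from the other genes of the top 5 regions in having no peak wider than 10 kb. Its region, from 17.809 to 159.298 kb, was built from 37 peaks, the widest 9.11 kb over exons 3 to 5, and 7 of its peaks were wider than 5 kb. Intron 1, 102.863 kb long, held 52.65 kb of peaks, which was 67.5% of the intronic peak bases. Alternative start sites at 55.25 to 55.271 kb lay within a 7.10 kb peak and those at 68.108 and 69.276 kb within a 7.47 kb peak, so the acetylated part of intron 1 contained annotated starts of shorter transcripts.

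MCF2L (chr13:112894378-113099742, + strand, 205.4 kb) is a guanine nucleotide exchange factor of the Dbl family. Its outermost annotated start lay at -74.836 kb. The canonical start lay in a 2.07 kb peak from -1.153 to 0.916 kb. Peak coverage was higher toward the 3′ end. The 3 peaks wider than 10 kb measured 12.38, 12.41 and 17.22 kb and lay between 70.997 and 120.956 kb, and the widest covered exons 10 to 26. Exons touching a peak numbered 28 of 30. No peak base lay in the 50 kb downstream of the gene, although the domain ended at 127.986 kb, close to its 3′ end. The first stretch, between -74.543 kb and the next peak, had no peak over 48.26 kb.

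GPSM1 (chr9:136327476-136359605, + strand), also named AGS3, binds Gαi subunits of heterotrimeric G proteins through its GoLoco motifs. At 32.13 kb it is the shortest of the 9 genes. A single peak of 28.35 kb, rank 2 of the list, started at -4.758 kb, passed over the start site and ended at 23.591 kb, covering exons 1 to 11 of 14. This peak held 70.9% of the peak bases of the window, the highest such share among the 9 genes. All 14 exons touched a peak, since the next peak of 3.72 kb covered exons 12 and 13 and a 500-base peak lay on exon 14. The longest gap within the body was 2.24 kb.

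SH3BP5 (chr3:15254353-15341368, - strand, 87.02 kb), also named Sab, is a guanine nucleotide exchange factor for RAB11 and a mitochondrial binding partner of JNK. The start site lay in a 3.39 kb peak from -0.314 to 3.075 kb. The domain was intronic. The 19.12 kb peak, rank 8 of the list, lay wholly in intron 2 from 5.746 to 24.865 kb and touched no exon of the canonical transcript, and intron 2 had 84.3% of its 26.272 kb in peaks. Intron 3 held a further 17.59 kb of peaks. In all, 3 of 9 exons touched a peak, and exon bases were less covered (15.8%) than intron bases (57.3%).

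WDR25 (chr14:100376418-100530303, + strand, 153.9 kb) is a WD-repeat protein whose function is little known. It had 4 peaks wider than 10 kb, the most of the 9 genes. The peak over the start site was 12.91 kb wide but lay mostly upstream, from -11.534 to 1.375 kb. It also held the start site of WARS1, the cytoplasmic tryptophanyl-tRNA synthetase, which is transcribed in the opposite direction from -1.138 kb. Peaks of 11.79, 21.55 and 15.41 kb followed within the gene, and intron 2 held 82.5% of the intronic peak bases, 61.854 of its 86.274 kb. From 102.916 kb to the 3′ end at 153.818 kb there was no peak. The region of rank 1 began at -44.434 kb, over the body of WARS1 (65.8% in peaks), so it was shared by both genes.

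The 9 genes were divided into 3 equal parts along the body, from 5′ to 3′. For all genes of 30 kb or longer with a peak (n = 7216), the median share of body peak bases in the 5′ part was 100%. Among the 9 genes the position of the mark varied. WDR25 had 91.0%, 56.5% and 0.8% of its 5′, middle and 3′ parts in peaks, and MAD1L1 had 53.1%, 9.1% and 12.7%. GPSM1 (100%, 100% and 64.8%), DEAF1 (87.7%, 65.7% and 69.3%) and SH3BP5 (64.9%, 61.8% and 24.4%) also had their highest or joint highest coverage at the 5′ end. URB1 (66.4%, 99.1% and 55.8%) and PACSIN2 (32.1%, 73.5% and 36.1%) were covered most in the middle. MCF2L (6.0%, 25.2% and 78.6%) and SSBP3 (14.7%, 14.1% and 73.2%) were covered most at the 3′ end, where the median gene had no peak base. The parts divide the whole annotated body and not the canonical transcript. In MCF2L, whose outermost start is at -74.836 kb, the 5′ part ended upstream of the canonical start, which fell in the middle part. The 3′ part of PACSIN2 ran past the end of its canonical transcript, which spans 145.4 of 179.7 kb.

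**Figure D3:**
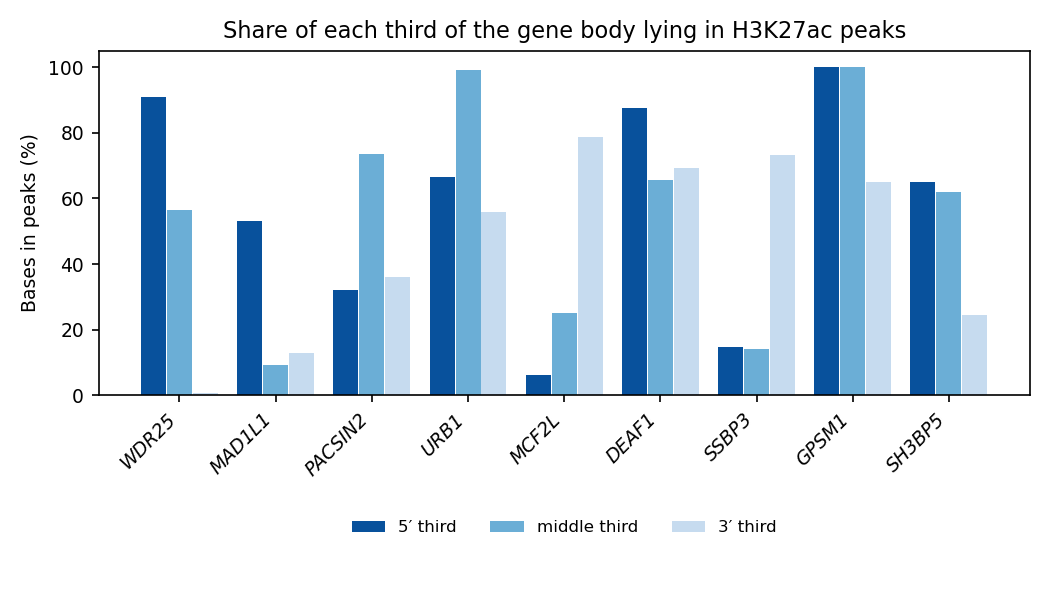
Percent of bases in H3K27ac peaks (y axis) in the 5′, middle and 3′ parts of equal length of each gene body (dark, middle and light bars). The 3′ part is the highest bar in MCF2L (78.6%) and SSBP3 (73.2%) and is nearly empty in WDR25 (0.8%). The body of MCF2L begins at its outermost start, so its 5′ part lies upstream of its canonical start.

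Exons and introns of the canonical transcripts were covered to different extents. Over all protein-coding genes 6.41% of exon bases and 2.03% of intron bases were in peaks. Intron coverage exceeded exon coverage in MAD1L1 (24.9% of intron bases against 20.5% of exon bases), URB1 (74.9% against 66.4%), GPSM1 (90.6% against 69.5%) and SH3BP5 (57.3% against 15.8%). Exon coverage was the higher in WDR25 (51.8% against 49.4%), PACSIN2 (80.5% against 54.9%), MCF2L (57.4% against 53.4%), DEAF1 (82.8% against 72.4%) and SSBP3 (72.7% against 33.6%). Introns make up most of each gene, so nearly all peak bases of the canonical transcript lay in introns in MAD1L1 (99.5%) and WDR25 (98.7%).

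The canonical start site lay in a peak in 9 of 9 genes, beside 53.5% of all protein-coding genes. The width of that peak separated the genes. In GPSM1 it was the widest peak of the gene (28.35 kb), and in WDR25 (12.91 kb) and DEAF1 (7.22 kb) it was wider than 5 kb. In the other 6 genes it measured from 1.80 kb in MAD1L1 and PACSIN2 to 3.97 kb in SSBP3, and the widest peak lay inside the gene. The distance from the start to the near edge of the widest peak was 127.404 kb in SSBP3, 121.279 kb in PACSIN2 and 103.737 kb in MCF2L.

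Of the 124 annotated start sites of the 9 genes, 85 (68.5%) lay in a peak, beside 41.1% of all annotated start sites of protein-coding genes. All 3 sites of URB1 were covered, as were 15 of 16 in DEAF1, 5 of 6 in GPSM1 and 9 of 11 in WDR25. MCF2L, with the most annotated starts, had 23 of 31 in peaks, and PACSIN2 had 8 of 11 and SH3BP5 6 of 9. Coverage was lowest in MAD1L1 (9 of 21) and SSBP3 (7 of 16). The sites of 1 gene share peaks and are not independent, and genes chosen by peak width have much of their body covered. In SH3BP5 the upstream start sites at -8.651 and -8.782 kb and in SSBP3 those at -7.072 and -7.085 kb were outside peaks, so in both genes the mark was on the canonical and not on the outermost start.

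Most peaks in the windows lay away from start sites. Beyond 3 kb of any annotated start site lay 148 of 273 peaks (54.2%), beside 38.8% of all peaks. PACSIN2 (33 of 46) and SH3BP5 (17 of 22) had the highest counts relative to their peaks, and DEAF1 (9 of 31) and GPSM1 (3 of 11) had few. A start site of any gene was held by 55 peaks (20.1%), against 42.2% of the other peaks in the list. In bases rather than peaks, 58.1% of peak sequence in the windows lay more than 3 kb from any start, against 35.9% in the rest of the list. Distances over 10 kb accounted for 57.4% of peak bases in SH3BP5, between 28.1% and 31.2% in URB1, WDR25, MAD1L1 and PACSIN2, 19.5% in SSBP3, 4.41% in GPSM1, 4.22% in MCF2L and none in DEAF1.

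Wide peaks elsewhere in the list had a smaller share of bases far from start sites. Among peaks wider than 5 kb, 57.4% of bases in the 9 windows lay more than 3 kb from any start, against 41.7% in the other 609 such peaks of the list. Of the 37 wide peaks in the windows 21 (56.8%) held a start site, against 68.5% of the other 609. The sets were not matched for width, since the 37 peaks summed to 381.7 kb and the other 609 to 4569.85 kb. Because width also chose the genes, these shares are descriptions, and whether width accounts for them was not tested.

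The windows held 264 gaps between neighbouring peaks. Short gaps were common, but the choice of genes by summed width of stitched regions bears on spacing, so gap lengths are not independent of it. In all, 134 gaps (50.8%) measured 1 kb or less, which was 56.8% of the 236 gaps short enough to be stitched, beside 46.6% of the 13735 such gaps in the list. The median stitched gap was 755 bases in the windows and 1230 bases in the list. DEAF1 (median 470 bases over stitched gaps), WDR25 (560 bases) and PACSIN2 (680 bases) had the tightest spacing, and 21 of 30 gaps in DEAF1 and 21 of 30 in WDR25 measured 1 kb or less. MAD1L1 (1575 bases) and GPSM1 (1740 bases over 8 gaps) had the widest. A start site lay in 46 of the 264 gaps and in 6 of the 134 short ones, so most short gaps held no annotated start. Short gaps hold little sequence, since those of at least 50 bases summed to 60.02 kb, against 1220.71 kb over all gaps. The counts of gaps with a start are therefore not comparable between short and all gaps. Whether length accounts for them was not tested, and no such share is given for the whole list.

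**Figure D4:**
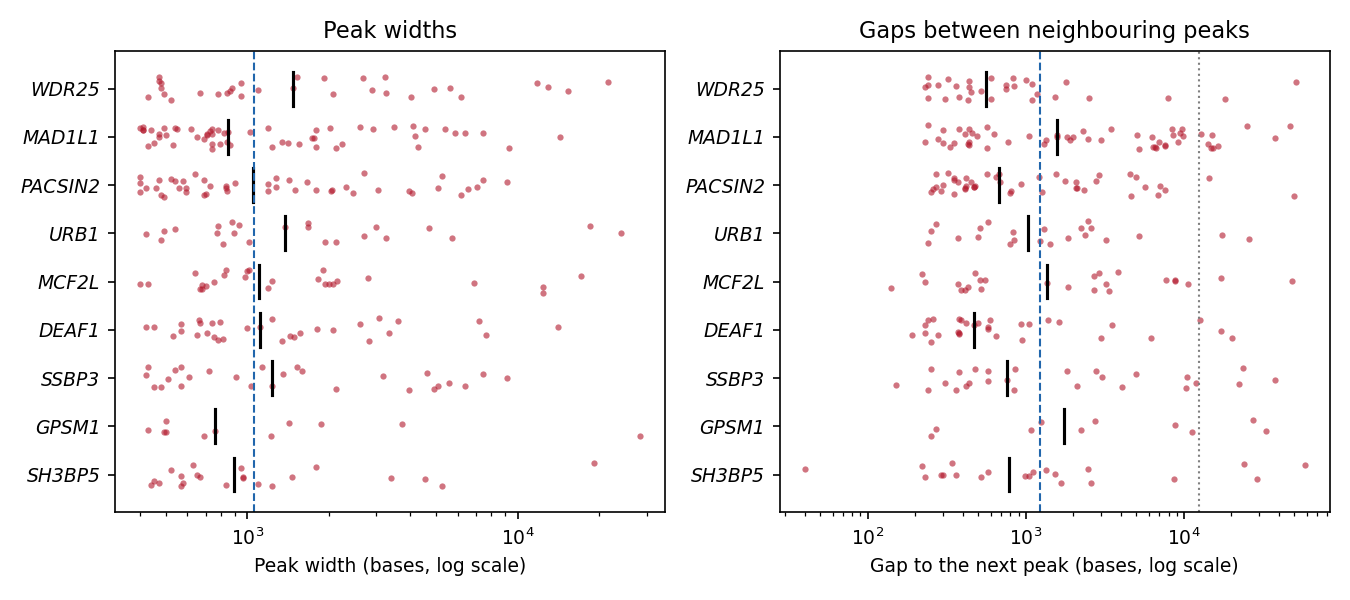
Peak widths (left) and gaps to the next peak (right), both in bases on a log scale, in the window of each gene, with 1 point per peak or gap; black bars are medians (in the right panel over gaps up to the stitching distance, the dotted line) and dashed lines are medians of the whole list (1060 bases for widths, 1230 bases for stitched gaps). Median widths sit near the whole-list value while single peaks of GPSM1, URB1, WDR25 and SH3BP5 reach 18.57 to 28.35 kb, and median gaps lie below the whole-list value in 6 of the 9 genes.

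Base composition was not used to choose the genes. Peaks in the windows had 53.8% GC against 54.7% in all peaks. GC content ranged from 47.8% in SH3BP5 and 48.2% in URB1 to 57.8% in DEAF1, 58.4% in MCF2L and 65.9% in GPSM1. CpG density was lower in the windows, with 26.7 per kb against 41.2 per kb in all peaks, but among peaks wider than 5 kb the values were 23.3 per kb in the windows and 27.7 per kb elsewhere. Peaks without a start site had 21.9 per kb in the windows and 20.8 per kb elsewhere, while peaks with a start site had 32.7 per kb in the windows and 58.3 per kb elsewhere. The lower density was seen in start-site peaks, which were few and wide here, with 306.37 kb in 55 peaks. By gene, CpG density was lowest in WDR25 (17.4 per kb), SH3BP5 (17.5 per kb) and URB1 (17.8 per kb) and highest in GPSM1 (44.6 per kb).

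The promoters themselves were CpG-rich. The 250 bases before the canonical start lay wholly in a peak in 9 of 9 genes and contained from 23 CG dinucleotides in SH3BP5 to 38 in SSBP3, where the median of 35116 RefSeq promoters was 11. Their GC content ranged from 66.0% in SH3BP5 to 82.8% in GPSM1, against a median of 58.0%. None of the 9 promoters contained TGACGTCA or TGAGTCA on either strand, motifs held by 1.65% and 4.20% of all RefSeq promoters over the same 250 bases. The absence of these letters says nothing about binding elsewhere in the peak.

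TGACGTCA and TGAGTCA were counted on both strands because they are the ATF/CREB and AP1 motifs examined in the study, together with the flexible form TGANNTCA, which includes TGACGTCA. The 5 TGACGTCA matches in peaks gave 7.19 per Mb, against 19.1 per Mb in all peaks. They fell in 3 genes. DEAF1 had 3, of which those at 2.144 and 5.354 kb lay 46 and 1733 bases from an annotated start site. WDR25 had 1 in a 2.89 kb peak of intron 2, 16665 bases from the nearest annotated start site. MAD1L1 had 1 in a 4.28 kb peak of intron 16, 292.932 kb from the canonical start but 540 bases from another annotated start site. In gaps of 50 to 1000 bases there were 0 matches in 133 gaps (60.02 kb), against 24.4 per Mb in the 6341 such gaps of the list. The count of 0 allows a density of up to 49.98 per Mb (3 counts), so a difference was not detectable in so little sequence.

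TGAGTCA is shorter than TGACGTCA and was also counted as its reverse complement TGACTCA, so the counts of these motifs are not comparable. Peaks in the windows held 108 TGAGTCA matches (155 per Mb), against 150 per Mb in all peaks, and WDR25 had the most with 26. Gaps of 50 to 1000 bases held 12 (199.9 per Mb), against 247.8 per Mb in such gaps of the list. SSBP3 had 3 of these 12, and MAD1L1, PACSIN2 and DEAF1 had 2 each. TGANNTCA occurred at 516 per Mb in the peaks of the windows and 466 per Mb in all peaks. No test was made on these densities.

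Some peaks in the windows, inside or outside the main stitched regions, also lay over neighbouring genes. Within the 9 windows lay the canonical starts of 26 other protein-coding genes, of which 17 (65.4%) were in a peak, beside 53.5% of all protein-coding genes. Next to DEAF1, TMEM80 (74.7% of its body in peaks) started at -0.594 kb on the opposite strand within the 7.22 kb peak, and EPS8L2 (51.5%) started within the 7.62 kb peak. On the 3′ side of DEAF1, DRD4, a dopamine receptor gene, had 69.5% of its body in peaks, and IRF7, a regulator of interferon genes, had 82.3%. By contrast, F7 and F10, the coagulation factor genes next to MCF2L, had no peak base. MRM2 and NUDT1 shared a 1.55 kb peak upstream of MAD1L1. EVA1C, upstream of URB1, had a 5.74 kb peak at its start, and ARFGAP3, which starts inside the annotated body of PACSIN2, had a 2.06 kb one. A peak in a shared stretch cannot be assigned to 1 gene from its position.

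The mark was compared with 17 genes related by family or complex, namely 16 relatives or partners of the 9 genes and WARS2, a relative of the neighbour WARS1. The canonical start lay in a peak in 14 of the 17, beside 53.5% of all protein-coding genes, and their median body coverage was 2.98%, beside 1.45%. Broad coverage was seen in a few short ones. GPSM3, a short relative of GPSM1, had 64.1% of its 4.758 kb in peaks, and LDB1, the partner of SSBP3, had 41.6%. PACSIN3 had 24.2%, whereas PACSIN1, a neuronal relative of PACSIN2, had no peak. MCF2 had none either, and MCF2L2 had 1.07% with its canonical start outside peaks. Among long relatives, SSBP2 (338.994 kb) had 3.31% of its body in peaks, with a peak of 8430 bases in its 3′ part. The spindle checkpoint genes BUB1, BUB1B, BUB3, TTK and MAD2L1 each had 1 peak, in the 5′ part of the gene, and 50 peaks touched MAD1L1. These counts are not comparable, since the 5 genes are 11.236 kb (MAD2L1) to 60.101 kb (BUB1B) long and MAD1L1 is 417.5 kb. Their body coverage was from 1.01% (BUB1B) to 6.12% (MAD2L1), against 24.96% in MAD1L1, which was chosen by peak width.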

How the data were processed

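ChIP-seq for H3K27ac was performed on SU-CCS-1 cells (3 ChIP samples and 3 inputs, grouped by their labels). Per the labels and methods, BWA-MEM (version 0.7.10-r789) was used by the authors for alignment to hg38, duplicate reads were removed, and MACS2 (version 2.2.6) called broad peaks over input, with denylisted regions filtered out. The deposited list gives only peak starts and ends in bases, with no signal, and how replicates were combined for the peak list is not given in the sources used here. Broad calling joins neighbouring enriched stretches, so widths and gaps depend on depth, threshold and the joining rule. Depth per peak is unknown, and no interval that needs it was computed. The number of sample columns left unused was 0.

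Peaks were intersected with GENCODE version 44 genes and windows of 50 kb using Python 3.11.15, pandas 2.3.3 and pysam 0.24.0. Pseudoautosomal genes were counted once. The canonical start is that of the Ensembl canonical transcript. Stitching used 12.5 kb and the promoter window 3 kb, as in the study. Interval functions were tested on simulated peaks. The 9 genes, the 17 related genes and the tests were chosen with earlier results of these data known. Named genes were the 9, protein-coding genes in their windows, and the 17 related genes; SOX10 was named outside this rule, after its values were seen. In all, 28 alternatives over 10 results were tried, varying the peaks used, windows, start sites, gap lengths, stitching and ranking. The sequence of 1 motif match is not reported here.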

Additional observations from a re-analysis of the deposited data

How the results depend on the processing

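Of 28 alternatives over 10 results, 7 moved the value beyond its counting or between-gene range or, for a count of genes, by more than 1.5 times, and 21 did not. Counting a start site within 500 bases of a peak as covered raised the share of annotated starts in peaks from 68.5% to 77.4%, beside 45.8% over all protein-coding genes. With only the widest 50% of peaks, 33.6% of gaps in the windows measured 1 kb or less instead of 50.8%, beside 9.03% instead of 20.8% over all gaps. A promoter window of 1 kb put 70.3% of peaks beyond it (48.8% of all peaks), and counting starts of protein-coding transcripts alone gave 75.8% (54.1% of all peaks), so the share of distal peaks depends on the definition while the order of the 2 sets was kept under both. Ranking stitched regions by span left 4 of the 9 genes in the top 10 instead of 7. In gaps of 50 to 1000 bases the density of TGACGTCA was 0 per Mb instead of 8.19 per Mb (10 matches) over all gaps of the windows, and that of TGAGTCA was 199.9 per Mb instead of 141.7. The causes were not tested. With the outermost start site in place of the canonical one, 7 of 9 genes had it in a peak. Median body coverage ranged from 42.1% to 55.4%. No paired analysis was possible because peaks of all replicates stand in a single list, and no replicate could be left out. Depth limits every statement about a stretch without a peak.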
